A study of Xenopus laevis with 18 samples.

Results

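The transcripts described here are those of gadd45a, txnip and nr4a1, genes best known for their induction by cellular stress. They were followed in mature eggs and stage VI oocytes of the frog Xenopus laevis. They were found by name: 6 of the 51026 transcripts in the deposited concentration table carry one of these gene names once the homeolog suffix is removed. The 6 rows are gadd45a.S (gene39030), gadd45a.L (gene2743), txnip.L (gene261), txnip.S (gene16796), nr4a1.L (gene43101) and a row named nr4a1 with no suffix (gene44066). This frog is allotetraploid, and the suffixes L and S name the copies of a gene on its long and short subgenomes. All 6 rows passed the filter on low counts. The 3 genes were selected on measured values of these same libraries, namely their lower level in eggs than in oocytes. The egg and oocyte values of the 6 rows are therefore given as a description with no test, and tests are kept for the contrasts between cell fractions.

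Gadd45a encodes a small growth-arrest protein induced by DNA damage, which binds the replication clamp PCNA and the kinase MAP3K4 and has been linked to DNA repair and demethylation. Txnip encodes an alpha-arrestin that binds thioredoxin and restrains glucose uptake, and its gene is a classical target of the glucose sensor MondoA (mlxip). Nr4a1 encodes an orphan nuclear receptor, also called Nur77, whose gene is switched on as an immediate-early response in somatic cells. A full-grown oocyte rests in meiotic prophase with a large store of maternal mRNA. Progesterone makes it complete maturation, during which transcription is largely silent and mRNA levels depend on stability.

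Eggs had been obtained by culturing defolliculated oocytes with 2 µM progesterone at 18 °C, and the oocytes had received no progesterone. Each stage was separated into endoplasmic reticulum (ER), pellet and cytosol, with 4 cells per library and 3 libraries in each of the 6 groups. The submitters call these biological replicates, but the sources used here do not give the frog or culture behind each library. P-values therefore measure the spread between these libraries, which may be technical. Library totals ranged from 23095791 to 37834030 estimated counts. The authors used 5 spike-in RNAs to turn TPM into attomolar (aM) concentrations, which are per transcript and so comparable between genes. Within a stage, adding up cytosol, ER and pellet of the same replicate number always gave 70656.7 to 70656.8 aM, so a stage total compares how a fixed amount is divided among transcripts. Oocyte markers summed to 256 to 270 aM in eggs and 234 to 268 aM in oocytes, with 2 of 28 rows at 0 in each stage. Genes listed as markers of follicle and other somatic cells summed to 50.6 to 54.1 aM in eggs and 49.3 to 54.3 aM in oocytes, with 3 of 38 rows, all hemoglobin genes, at 0 in both. Most of that sum came from the keratins krt8 and krt18 and from cyp17a1.L and vim.L. The follicle cell markers went both ways. Fshr.L and foxl2.S were at 0.0111 and 0.0088 aM in eggs and 0.0128 and 0.00957 aM in oocytes. Amh.S and lhcgr.L were at 0.0613 and 0.0308 aM in eggs and 0.0478 and 0.0212 aM in oocytes. Inhbb.S was at 0.00228 aM in eggs and 0.00521 aM in oocytes. Whether the abundant rows of this list came from somatic cells or from the oocyte itself was not tested, so the sum does not measure somatic RNA. Of the 38 somatic rows 20 had a higher and 15 a lower mean total in eggs. Among the steroidogenic markers hsd3b1.L was at 0.737 aM in eggs and 0.176 aM in oocytes, while cyp17a1.L was at 2.75 aM in eggs and 3.35 aM in oocytes and star.L at 0.0573 aM in eggs and 0.0967 aM in oocytes. The part of follicle cells in the members' values was not tested. In such bulk samples fewer cells of a type and less RNA per cell cannot be told apart.

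Gadd45a.S was the most abundant of the 6 rows in oocytes. Its cytosolic level was 0.966, 1.26 and 1.19 aM in eggs (replicates 1, 2 and 3), against 8.27, 9.70 and 6.87 aM in oocytes. In the ER it was 0.263, 0.327 and 0.499 aM in eggs, against 5.10, 6.01 and 6.92 aM in oocytes. In the pellet it was 0.725, 0.343 and 0.403 aM in eggs, against 3.86, 2.48 and 2.56 aM in oocytes. Every egg library lay below every oocyte library of the same fraction, with no overlap. The share of all transcripts whose stages separate in this way was not counted. Here and below, such separation only describes rows that were picked for lower egg levels. Summed over the 3 fractions, the level was 1.99 ± 0.0891 aM in eggs and 17.3 ± 0.917 aM in oocytes (SD, n = 3), an 8.66-fold lower level in eggs. By mean TPM the transcript ranked 7589 in eggs and 314 in oocytes among all 51026 transcripts of the concentration table.

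Gadd45a.L showed the largest difference of the 6. Its cytosolic level was 0.296, 0.426 and 0.390 aM in eggs, against 4.06, 5.12 and 3.78 aM in oocytes. In the ER it was 0.0775, 0.144 and 0.139 aM in eggs, against 2.97, 3.48 and 4.35 aM in oocytes, and in the pellet 0.167, 0.0967 and 0.109 aM in eggs, against 2.93, 2.00 and 2.01 aM in oocytes. In each fraction the lowest oocyte library was far above the highest egg library. The stage total was 0.540, 0.667 and 0.638 aM in eggs, against 9.96, 10.6 and 10.1 aM in oocytes, which is 16.6-fold lower in eggs. The estimated counts behind it were 77 to 122 in egg ER and 1794 to 2195 in oocyte ER, so its egg level is the least precise of the gadd45a values. Both gadd45a rows together held 2.61 ± 0.119 aM in eggs and 27.5 ± 1.17 aM in oocytes (SD, n = 3). The S copy was thus the more frequent copy at either stage, and its excess was larger in eggs. The ratio of gadd45a.S to gadd45a.L was 3.62, 2.89 and 3.28 in eggs and 1.73, 1.72 and 1.61 in oocytes, and these values did not overlap.

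Txnip.L, the L copy of the thioredoxin-binding arrestin, had a cytosolic level of 0.623, 0.763 and 0.952 aM in eggs, against 1.81, 2.03 and 1.61 aM in oocytes. In the ER the values were 0.147, 0.204 and 0.271 aM in eggs, against 1.24, 1.43 and 1.43 aM in oocytes. In the pellet they were 0.373, 0.202 and 0.216 aM in eggs, against 0.840, 0.615 and 0.567 aM in oocytes. Again no egg library reached an oocyte library of its fraction. The stage total was 1.25 ± 0.164 aM in eggs and 3.86 ± 0.236 aM in oocytes (SD, n = 3), or 3.09-fold lower in eggs.

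Txnip.S was the least different of the 6 rows. Its cytosolic level was 0.580, 0.685 and 0.849 aM in eggs, against 1.099, 1.27 and 1.07 aM in oocytes, and its ER level was 0.156, 0.234 and 0.266 aM in eggs, against 0.967, 1.01 and 1.04 aM in oocytes. Both fractions separated the stages. The stage total was 1.27, 1.17 and 1.41 aM in eggs, against 2.68, 2.63 and 2.48 aM in oocytes, or 2.02-fold lower in eggs. Its pellet level was 0.536, 0.252 and 0.296 aM in eggs, against 0.613, 0.350 and 0.376 aM in oocytes. This was the fraction in which the stages overlapped, through egg replicate 1. The txnip copies were close to equal in eggs and unequal in oocytes. The ratio of txnip.L to txnip.S was 0.898, 0.998 and 1.02 in eggs and 1.45, 1.55 and 1.45 in oocytes, without overlap.

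Nr4a1.L, the L copy of the orphan receptor, had a cytosolic level of 0.402, 0.534 and 0.492 aM in eggs, against 0.702, 0.761 and 0.761 aM in oocytes. In the ER it was 0.134, 0.194 and 0.208 aM in eggs, against 0.620, 0.669 and 0.768 aM in oocytes. In the pellet it was 0.131, 0.0779 and 0.070 aM in eggs, against 0.392, 0.324 and 0.286 aM in oocytes. The stages were apart in each fraction, most clearly in ER and pellet. The stage total was 0.748 ± 0.0720 aM in eggs and 1.76 ± 0.0510 aM in oocytes (SD, n = 3), or 2.36-fold lower in eggs.

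The row named nr4a1 was the scarcest. Its stage total was 0.187, 0.259 and 0.211 aM in eggs, against 0.383, 0.647 and 0.452 aM in oocytes, a 2.26-fold lower level with no overlap. Its cytosolic values did overlap, at 0.0981, 0.164 and 0.132 aM in eggs and 0.142, 0.172 and 0.185 aM in oocytes. In the ER it had 0.0275, 0.0524 and 0.0499 aM in eggs, against 0.110, 0.166 and 0.131 aM in oocytes, and in the pellet 0.0614, 0.0425 and 0.0290 aM in eggs, against 0.131, 0.309 and 0.137 aM in oocytes. The highest of these pellet values came from oocyte replicate 2. Estimated counts of nr4a1.L and nr4a1 were whole numbers, within 0.0001, in 5 of 18 libraries each, against 15 for each gadd45a row and 12 for each txnip row. Fractional counts arise where a read is compatible with more than 1 transcript, so the split between the nr4a1 rows is uncertain. Their ratio, nr4a1.L to nr4a1, was 3.57, 3.11 and 3.66 in eggs and 4.47, 2.71 and 4.01 in oocytes, and overlapped. The sum of both, less affected by the split, was 0.967 ± 0.106 aM in eggs and 2.25 ± 0.153 aM in oocytes (SD, n = 3).

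**Figure D1:**
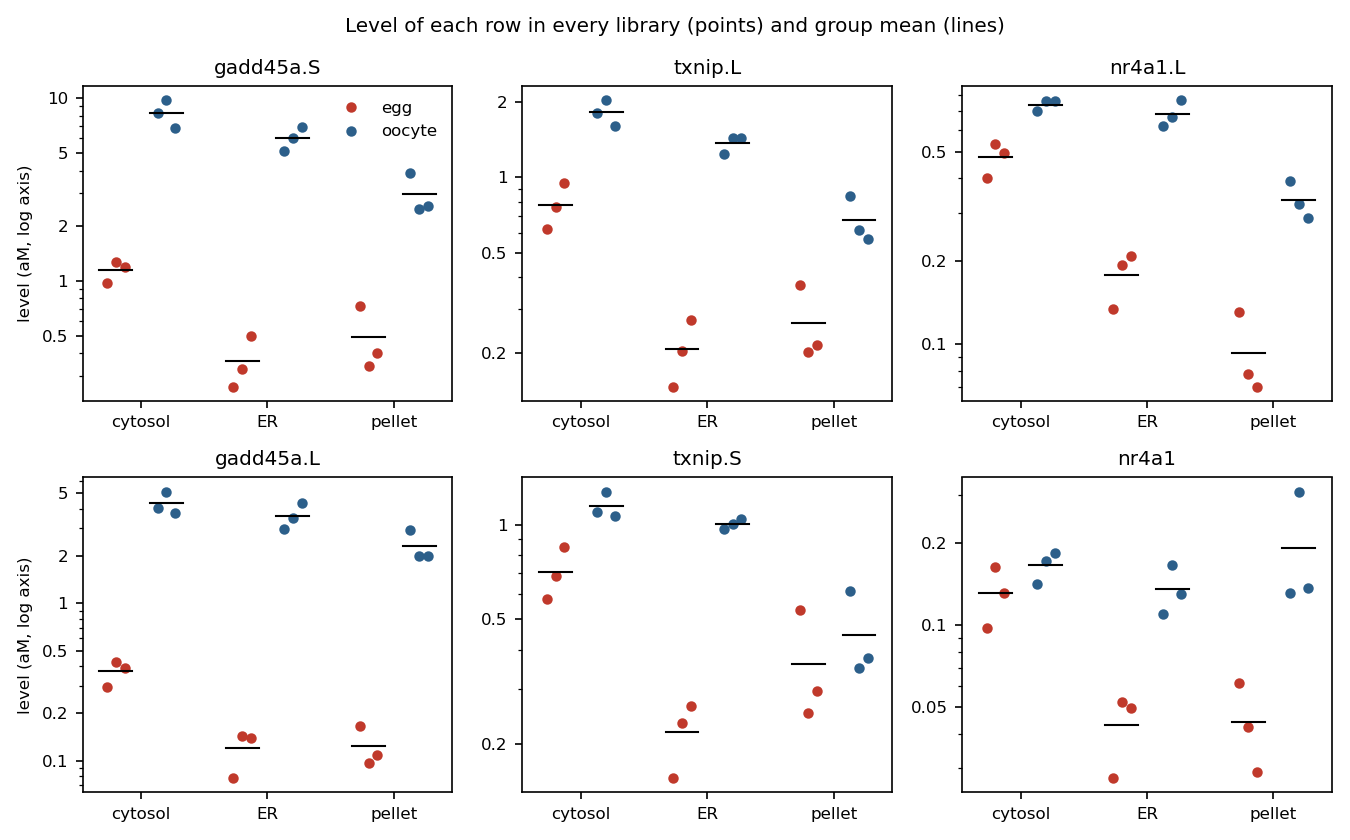
Level in aM on a log axis of each of the 6 rows in cytosol, ER and pellet, with 1 point per library, eggs in red to the left of oocytes in blue, and a line at each group mean of 3. Egg points lie below oocyte points except in the cytosol of nr4a1 and the pellet of txnip.S.

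The order of the oocyte totals was gadd45a.S, gadd45a.L, txnip.L, txnip.S, nr4a1.L and nr4a1, at 17.3, 10.2, 3.86, 2.60, 1.76 and 0.494 aM, and no neighbours in that order overlapped. In eggs the order was gadd45a.S, txnip.S, txnip.L, nr4a1.L, gadd45a.L and nr4a1, at 1.99, 1.29, 1.25, 0.748, 0.615 and 0.219 aM. There txnip.S and txnip.L overlapped, and the lowest nr4a1.L total and the highest gadd45a.L total were both 0.667 aM when rounded. Gadd45a.L thus stood below nr4a1.L and both txnip rows in eggs and above them in oocytes, while gadd45a.S stood at the head in either stage.

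Set beside all transcripts, these ratios were at the low end. The median log2 ratio of stage totals, egg over oocyte, was 0.16 over 25937 transcripts, and 97.2% were within 2-fold. Of these transcripts 306, or 1.18%, were at least 2-fold lower in eggs, and 13 were at least 8-fold lower. The log2 ratios of the 6 rows were -4.06 for gadd45a.L, -3.11 for gadd45a.S, -1.63 for txnip.L, -1.24 for nr4a1.L, -1.17 for nr4a1 and -1.01 for txnip.S. Counted from the lowest of the 25937, gadd45a.L was at place 4, gadd45a.S at 12 and txnip.L at 92. Nr4a1.L was at place 189, nr4a1 at 217 and txnip.S at 299. Among the 12297 transcripts that averaged at least 1 aM over the stage totals, gadd45a.L was at place 1 and gadd45a.S at place 3. Between them stood efna1.S, an ephrin ligand, at 0.990 aM in eggs and 9.70 aM in oocytes. Txnip.L was at place 7, nr4a1.L at place 19 and txnip.S at place 41, while nr4a1 did not reach that average. Gadd45a.L and nr4a1.L reached it only through their oocyte totals. These ranks restate the values for which the genes were picked and support nothing further.

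**Figure D2:**
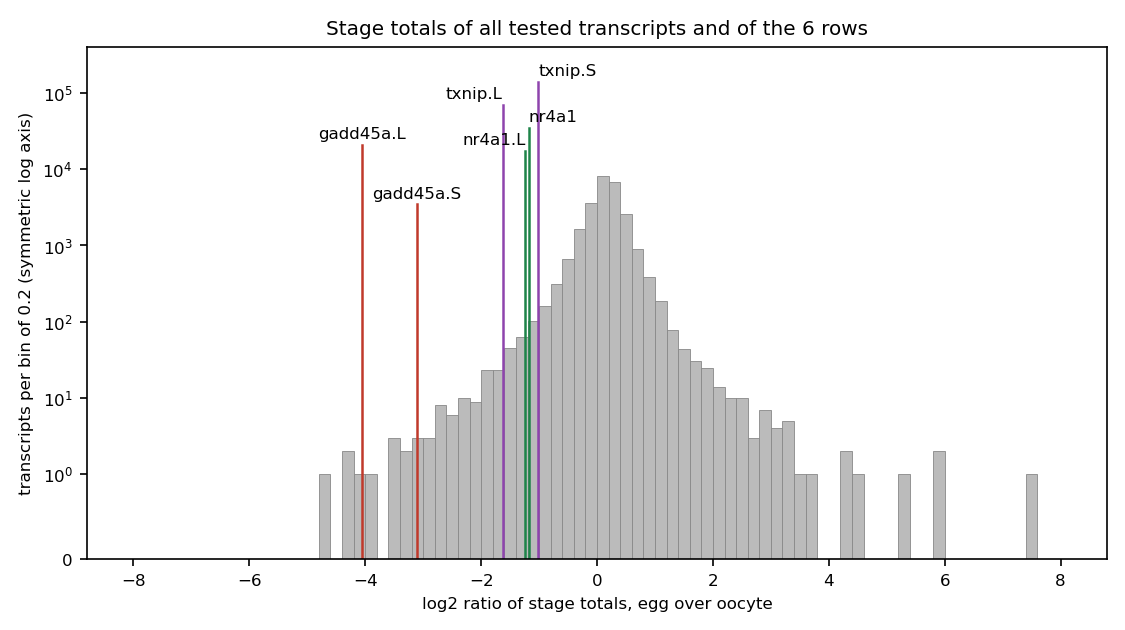
Number of transcripts, on a symmetric log axis, per bin of 0.2 of the log2 ratio of stage totals, egg over oocyte, with the 6 rows marked by lines. The bulk of the 25937 transcripts is close to the median of 0.16, and both gadd45a rows stand in the sparse tail at -3.11 and -4.06.

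In the count model, which measures each transcript against the typical one in the same fraction, the rows were lower in eggs in all 3 fractions. The log2 fold change of gadd45a.S, egg over oocyte, was -3.18 ± 0.11 in cytosol, -3.25 ± 0.11 in ER and -2.58 ± 0.10 in pellet (standard error). That of gadd45a.L was between -4.10 and -3.90 in the 3 fractions. Txnip.L had -1.66 ± 0.13 in cytosol, -2.00 ± 0.13 in ER and -1.38 ± 0.12 in pellet. For nr4a1.L the values were -1.14 ± 0.13 in cytosol, -1.24 ± 0.13 in ER and -1.84 ± 0.13 in pellet. In the pellet txnip.S was at -0.38 ± 0.09 and nr4a1 at -2.23 ± 0.34. The order of the fractions within a row depended on the scaling, as nr4a1.L had -1.96 in ER and -1.78 in pellet under spike-in scaling. In these contrasts 18.6% of the 25938 transcripts tested were called lower in egg cytosol, 16.1% in egg ER and 21.4% in egg pellet, at a Benjamini-Hochberg adjusted p under 0.05 in edgeR's quasi-likelihood test. Calls of higher level covered 18.4% in egg cytosol, 12.4% in egg ER and 22.3% in egg pellet.

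Oocyte pellet replicate 2 stood apart for these genes in TPM. All 6 rows had their highest TPM of the 3 oocyte pellets in that library, against 32.9% of all transcripts tested. In aM it was the highest oocyte pellet for nr4a1 alone, and the lowest for gadd45a.S, gadd45a.L and txnip.S. Its sum over all transcripts was 6581 aM, against 12437 and 8249 aM in the other oocyte pellets. For nr4a1 the TPM values of the oocyte pellets were 10.8, 51.3 and 18.0, and for nr4a1.L they were 31.7, 53.5 and 36.4. Without that library the egg over oocyte pellet log2 fold change was -1.34 for nr4a1, against -2.23 with it. It was -1.59 for nr4a1.L, -1.20 for txnip.L, -0.29 for txnip.S, -2.50 for gadd45a.S and -3.94 for gadd45a.L, so each remained lower in eggs.

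The contrasts between fractions were not used to pick the genes and could be tested. By mean share, most copies of each row were cytosolic in eggs, and at either stage the pellet held more of them than of the median transcript. For nr4a1.L in eggs the pellet share was near that median of 12.04%, at 19.6, 9.67 and 9.08% (replicates 1, 2 and 3). Gadd45a.S had 18.1% ± 5.27 of its copies in the ER, 24.7% ± 10.7 in the pellet and 57.2% ± 7.92 in the cytosol of eggs (SD, n = 3). In oocytes it had 35.0% ± 6.58 in the ER, 17.2% ± 4.59 in the pellet and 47.8% ± 5.65 in the cytosol. Taken over transcripts that reached 1 TPM in all 9 libraries of a stage, the median was 18.7% in ER, 12.04% in pellet and 68.3% in cytosol for eggs. For oocytes it was 33.5% in ER, 12.5% in pellet and 52.7% in cytosol. The smaller ER share in eggs was therefore shared by the typical transcript.

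Txnip.S had the largest pellet share in eggs, 28.2% ± 12.1, against 17.1% ± 5.07 in oocytes (SD, n = 3). The egg values were 42.2, 21.5 and 21.0%, and the oocyte values 22.9, 13.3 and 15.1%. The stages thus overlapped through oocyte replicate 1, and egg replicate 1 carried much of the egg mean. Egg replicate 1 had the highest pellet share of the 3 eggs for all 6 rows, and its pellet also held the largest sum over all transcripts, 15013 aM against 8273 and 8767 aM in the other egg pellets. How many of all transcripts had their highest egg pellet share in that replicate was not counted. Oocyte replicate 1 likewise had the highest oocyte pellet share for all rows but nr4a1. Its pellet held 12437 aM over all transcripts, against 6581 and 8249 aM in the other oocyte pellets. The row nr4a1 had the largest pellet share in oocytes, 37.4% ± 9.19, against 21.0% ± 10.3 in eggs. Nr4a1.L had the largest ER share of the 6 in eggs, 23.7% ± 3.50, and 38.9% ± 3.13 in oocytes. Set among all transcripts at 1 TPM or more, the pellet share of txnip.S was at percentile 96.3 in eggs and 78.8 in oocytes, and that of gadd45a.S at 93.4 in eggs and 79.3 in oocytes. Gadd45a.L was near the top in both, at percentile 87.9 in eggs and 92.4 in oocytes. Nr4a1.L was at percentile 55.8 in eggs and 85.2 in oocytes, and nr4a1 at 88.3 in eggs and 98.8 in oocytes. Txnip.L was at percentile 89.4 in eggs and 80.3 in oocytes. By these means, the pellet place of the txnip rows and gadd45a.S was higher in eggs. That of the nr4a1 rows and gadd45a.L was higher in oocytes. The percentiles carry no measure of spread. For txnip.L and gadd45a.L the stage change of pellet over cytosol was 0.27 ± 0.17 and -0.15 ± 0.17 (log2, standard error), so no direction is read for these rows.

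**Figure D3:**
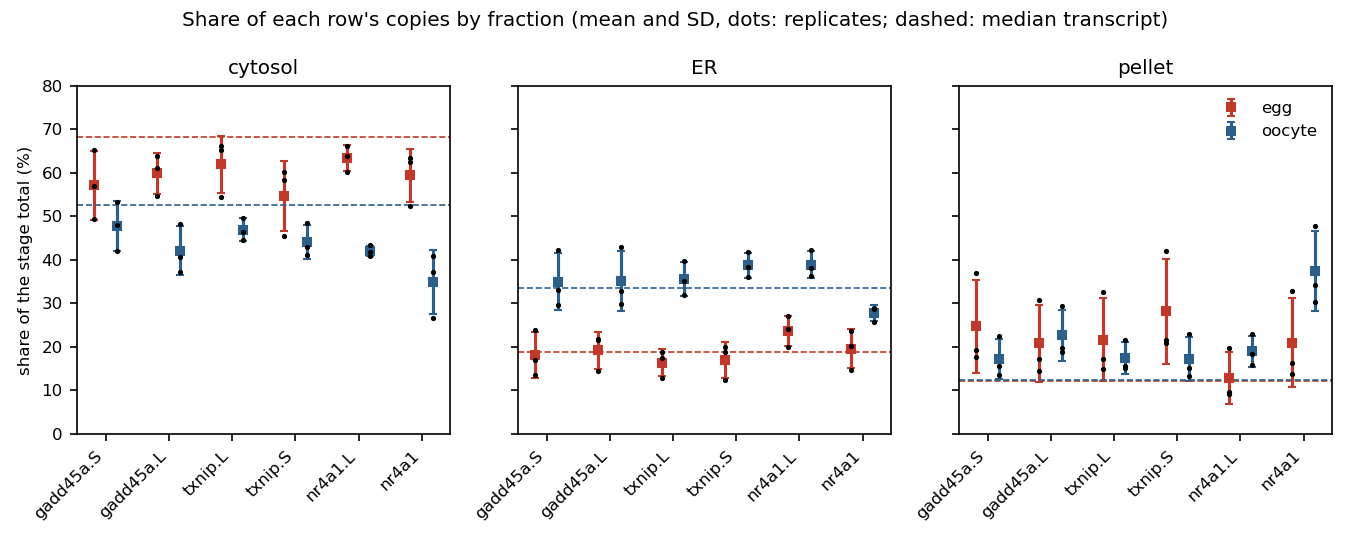
Share in percent of each row's copies found in cytosol, ER and pellet, with squares and bars for mean and SD of 3 replicates, dots for replicates, eggs in red to the left of oocytes in blue, and dashed lines at the median transcript. Mean cytosol shares lie below the dashed line of their stage, and mean pellet shares above it.

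Relative to the typical transcript, most of the rows were over-represented in the pellet, nr4a1.L in eggs being the exception. In eggs 5 of 6 rows were higher in pellet than in cytosol in edgeR's quasi-likelihood test at a Benjamini-Hochberg adjusted p under 0.05, where 34.4% of all transcripts were called higher and 32.4% lower. The log2 fold change, pellet over cytosol, was 1.42 ± 0.10 for txnip.S (adjusted p = 3.92e-11), 1.16 ± 0.11 for gadd45a.S (4.42e-09), 0.96 ± 0.14 for gadd45a.L (2.83e-06) and 0.88 ± 0.13 for txnip.L (3.15e-06). The row nr4a1 had 1.05 ± 0.39 (adjusted p = 0.022), a call that was lost without egg pellet replicate 2 and without egg cytosol replicate 1 or 3, with adjusted p between 0.055 and 0.078. For nr4a1.L the value was 0.19 ± 0.13 (adjusted p = 0.21), so no difference was detected. Markers moved in the same contrast: of 26 tested rows of follicle and other somatic markers 21 were called higher and 1 lower in egg pellet, with a median log2 fold change of 1.49, and of 26 oocyte marker rows 16 were higher and 8 lower, with a median of 0.59. Their part in the pellet values of the 6 rows was not tested.

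In oocytes all 6 rows were higher in pellet than in cytosol by the same test, beside 35.6% of all transcripts called higher and 32.6% called lower. The log2 fold change was 2.33 ± 0.35 for nr4a1 (adjusted p = 3.85e-06), 1.11 ± 0.09 for gadd45a.L (7.20e-10) and 0.88 ± 0.12 for nr4a1.L (1.01e-06). It was 0.63 ± 0.09 for txnip.S, 0.61 ± 0.12 for txnip.L and 0.55 ± 0.09 for gadd45a.S, with adjusted p of 2.56e-06, 1.14e-04 and 1.32e-05. Without oocyte pellet replicate 2 all 6 remained called, at 1.44 for nr4a1, 1.00 for gadd45a.L, 0.63 for nr4a1.L, 0.54 for txnip.S, 0.42 for txnip.L and 0.47 for gadd45a.S. Here 16 of the 26 somatic marker rows were called higher and 1 lower, with a median of 1.11, and 20 of the 26 oocyte marker rows were higher and 5 lower, with a median of 1.13, and again their part was not tested.

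Between ER and cytosol the differences were small. In eggs 1 of 6 rows was called higher in ER, nr4a1.L at 0.40 ± 0.13 (log2, adjusted p = 0.018 in edgeR's quasi-likelihood test), where 18.4% of all transcripts were called higher and 21.7% lower. That call was lost without egg ER replicate 3 or egg cytosol replicate 2, with adjusted p of 0.058 and 0.053. The other 5 egg values were between -0.10 for txnip.L and 0.25 for nr4a1, and none passed the test. In oocytes 4 of 6 rows were called higher in ER, beside 24.3% of all transcripts called higher and 24.8% called lower. These were nr4a1.L at 0.51 ± 0.12 (adjusted p = 0.0013), txnip.S at 0.45 ± 0.09 (3.02e-04), gadd45a.L at 0.40 ± 0.09 (0.0011) and gadd45a.S at 0.23 ± 0.09 (0.043). The call of gadd45a.S was lost without oocyte ER replicate 2 or 3 and without oocyte cytosol replicate 1 or 3, with adjusted p between 0.091 and 0.192. Txnip.L had 0.25 ± 0.12 (adjusted p = 0.089) and nr4a1 0.31 ± 0.37 (adjusted p = 0.53). With the replicate number as a block txnip.L was called, at 0.25 with an adjusted p of 0.0057.

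All of these fraction contrasts are relative to the typical transcript, which itself is scarcer outside the cytosol. Spike-in scaling used the summed counts of the spike-in RNAs. The gfp RNA made up 81.6 to 89.7% of these in each library, so the scaling rests mostly on that RNA. Scaled by the spike-ins, the typical shift on the log2 scale was -1.78 for ER over cytosol in eggs, -0.82 for ER over cytosol in oocytes, -2.00 for pellet over cytosol in eggs and -1.76 for pellet over cytosol in oocytes. With it, gadd45a.S was at -0.80 for pellet over cytosol in eggs and -1.22 in oocytes, and the other rows were negative as well, except nr4a1 in oocytes. The pellet levels of the rows were thus mostly high relative to other transcripts and, as mean amounts, below their cytosolic level except for nr4a1 in oocytes. That exception came from oocyte replicate 2 alone, at 0.309 aM in pellet and 0.172 aM in cytosol. It was not called by edgeR's test with spike-in scaling (0.49, adjusted p = 0.057) or in limma on aM values (0.096, adjusted p = 0.82).

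**Figure D4:**
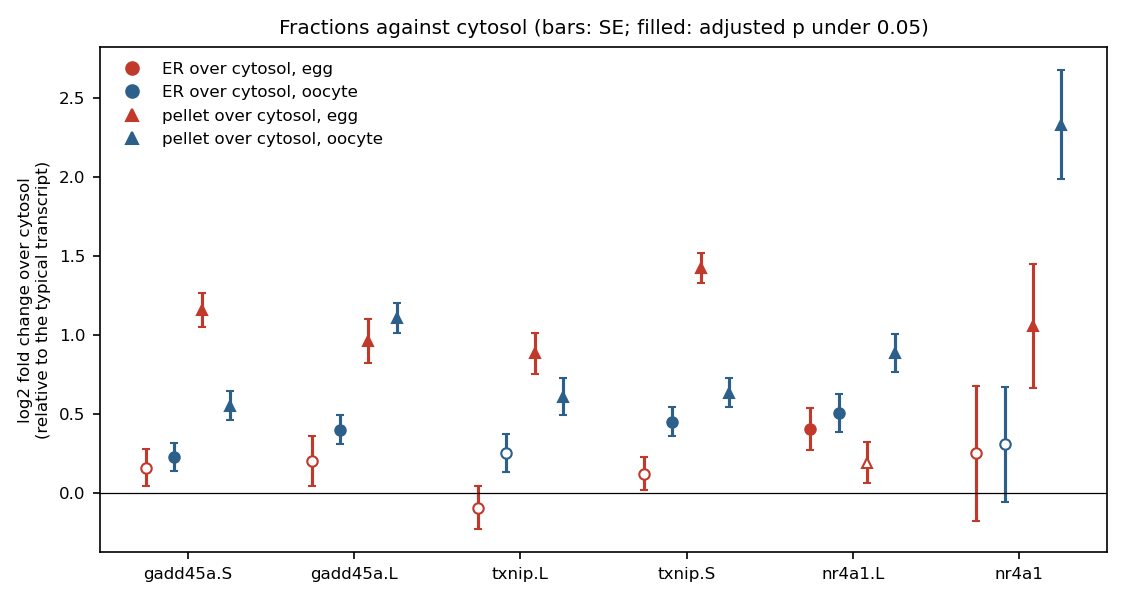
Log2 fold change of ER (circles) and pellet (triangles) over cytosol for the 6 rows, eggs in red to the left of oocytes in blue, with bars for the standard error and filled symbols for an edgeR Benjamini-Hochberg adjusted p under 0.05. All pellet symbols lie above 0, from 0.19 for nr4a1.L in eggs to 2.33 for nr4a1 in oocytes, and all change sign under spike-in scaling but nr4a1 in oocytes. That exception was not called under spike-in scaling.

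The change of these contrasts between stages rests on the egg and oocyte values that picked the genes, so it is described only. The pellet over cytosol contrast was larger in eggs by 0.79 ± 0.13 (log2, standard error) for txnip.S and by 0.60 ± 0.14 for gadd45a.S. It was smaller in eggs for nr4a1.L, at -0.70 ± 0.18, and for nr4a1, at -1.28 ± 0.52, and without oocyte pellet replicate 2 these became -0.44 and -0.39. For gadd45a.L it was -0.15 ± 0.17 and for txnip.L 0.27 ± 0.17. The ER over cytosol contrast differed by -0.35 to -0.06 relative to the typical transcript, by -1.31 to -1.03 under spike-in scaling and by -1.53 to -1.23 in limma on aM values. The deposited data also carry classes along the animal-vegetal axis, credited there to Sindelka et al. In these, 5 of the 6 rows are classed as animal, and nr4a1 has no class. The share of all transcripts in the animal class was not counted, so nothing particular to these rows is read from it.

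The close family of each gene did not share one direction. Gadd45g, another member of the growth-arrest family, was higher in eggs in both copies. The stage total of gadd45g.L was 0.824, 0.489 and 0.461 aM in eggs, against 0.186, 0.265 and 0.216 aM in oocytes, or 2.66-fold higher. That of gadd45g.S was 0.424, 0.231 and 0.208 aM in eggs, against 0.0829, 0.151 and 0.0928 aM in oocytes, or 2.64-fold higher. Egg replicate 1 was the highest for both, and no egg total reached down to an oocyte total. In the cytosol gadd45g.L rose by 2.06 ± 0.46 and gadd45g.S by 1.64 ± 0.52 on the log2 scale, with adjusted p of 9.81e-04 and 0.017 in edgeR's quasi-likelihood test. In the ER gadd45g.L rose by 1.76 ± 0.40 (adjusted p = 0.0018), and gadd45g.S was at 1.16 ± 0.47 (adjusted p = 0.073). The cytosol call of gadd45g.S was lost without egg cytosol replicate 1 or oocyte cytosol replicate 1, with adjusted p of up to 0.145, and counts of both rows were as low as 7. In the pellet the log2 fold changes, egg over oocyte, were 0.77 for gadd45g.L (adjusted p = 0.024) and 0.95 for gadd45g.S (adjusted p = 0.021), and neither was called by DESeq2, with adjusted p of 0.14 and 0.11. In edgeR both pellet calls were also lost without egg pellet replicate 1, oocyte pellet replicate 1 or oocyte pellet replicate 3, and that of gadd45g.L without egg pellet replicate 3, with adjusted p of up to 0.125. Gadd45b.S, the remaining family row, had up to 31 counts and was not tested.

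Of the alpha-arrestins related to txnip, arrdc2 was lower in eggs, arrdc2.L at 0.0446 ± 0.0105 aM in eggs and 0.0948 ± 0.00476 aM in oocytes and arrdc2.S at 0.141 ± 0.0108 aM in eggs and 0.238 ± 0.0161 aM in oocytes (SD, n = 3). Both fell in the cytosol, with log2 fold changes of -1.50 ± 0.27 and -1.02 ± 0.21 and adjusted p of 1.23e-04 and 5.26e-04 in edgeR's test, but neither cytosol value was called in limma on aM, at -0.91 (adjusted p = 0.16) and -0.44 (adjusted p = 0.44). In the ER they were at -1.73 and -0.78 in edgeR (adjusted p = 1.12e-04 and 0.013). The arrdc2.S call was lost without egg ER replicate 1 or oocyte ER replicate 2. Limma on aM called both in ER, at -2.23 and -1.42 (adjusted p = 8.57e-05 and 0.0092), where the median transcript was at -0.64. In the pellet edgeR called arrdc2.S (-1.08, adjusted p = 2.00e-04) but not arrdc2.L (-0.42, adjusted p = 0.16), and limma called neither. The rows arrdc1.L, arrdc1.S, arrdc3.S, arrdc4.L and arrdc4.S had stage totals in eggs of 0.961 to 1.06 times those in oocytes, while their pellet log2 fold changes ran between -0.14 for arrdc3.S and 0.48 for arrdc1.S. Mlxip.L, which encodes the activator of txnip, was at 1.85, 2.08 and 1.99 aM in eggs, against 2.23, 2.18 and 2.19 aM in oocytes. Mlxip.L fell in ER by 0.46, in pellet by 0.38 and in cytosol by 0.23 on the log2 scale. The adjusted p were 2.01e-06, 8.07e-06 and 0.0019 in edgeR's test. Under spike-in scaling the ER value was -1.16 (adjusted p = 3.11e-05). Pellet and cytosol were not called there, at -0.33 and 0.03 (adjusted p = 0.47 and 0.95). The thioredoxin row txn.L, the partner bound by txnip, was close to 0, at 0.00415 ± 0.0015 aM in eggs and 0.00381 ± 0.00312 aM in oocytes (SD, n = 3), and was not tested.

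Of the receptors related to nr4a1, nr4a2 was scarce. Nr4a2.L had 0.0474 ± 0.00973 aM in eggs and 0.0546 ± 0.0126 aM in oocytes, and nr4a2.S had 0.0272 ± 0.0160 aM in eggs and 0.0370 ± 0.00937 aM in oocytes (SD, n = 3), with overlap in both. In the pellet both fell, with log2 fold changes of -0.97 ± 0.24 and -1.41 ± 0.31 and adjusted p of 0.0023 and 6.92e-04 in edgeR's test, and both calls held without oocyte pellet replicate 2, at -0.75 and -1.23. In limma on aM values neither was called, with adjusted p of 0.31 and 0.065. In cytosol and ER neither passed the test. Rxra.L, a copy of the retinoid X receptor that can pair with NR4A proteins, was at 0.272 ± 0.0472 aM in eggs and 0.240 ± 0.0149 aM in oocytes, and rxrb.L, the most abundant of these receptors, at 5.58 ± 0.557 aM in eggs and 5.10 ± 0.191 aM in oocytes.

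Other rows of 4 stress lists were counted with the 6 rows left out. In the list of NR4A and immediate-early genes, 26 of 76 rows fell and 9 rose in egg cytosol, 21 fell and 5 rose in egg ER, and 33 fell and 17 rose in egg pellet, by edgeR's test at an adjusted p under 0.05. These counts stand beside 18.6% of all transcripts lower and 18.4% higher in cytosol, 16.1% and 12.4% in ER, and 21.4% and 22.3% in pellet. The median log2 fold change of the list was -0.26 in cytosol, -0.11 in ER and -0.18 in pellet, against -0.015 in cytosol, -0.011 in ER and -0.0083 in pellet over all transcripts. In oocyte pellet replicate 2 the highest TPM of the 3 oocyte pellets was found for 46 of these 76 rows, or 60.5%. Without it 24 rows fell and 17 rose in the pellet, beside 19.5% lower and 20.0% higher over all transcripts. Under spike-in scaling the typical transcript itself was shifted, egg over oocyte, by 0.26 in cytosol, -0.70 in ER and 0.016 in pellet on the log2 scale. So scaled, 6 fell and 5 rose in cytosol, 60 fell and 0 rose in ER, and 17 fell and 5 rose in pellet, beside 2.45% lower and 10.1% higher, 61.3% lower and 0.790% higher, and 4.74% lower and 5.46% higher over all transcripts.

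In this list 5 of 76 rows had stage totals at least 2-fold lower in eggs and 1 was at least 2-fold higher, and they are named after their values were seen. Of all transcripts 1.18% were at least 2-fold lower, and 97.2% were within 2-fold. Their adjusted p rest on the same egg and oocyte values and are given as a description. The same holds for rows of the other lists named for a total beyond 2-fold. It also holds for rows named because their adjusted p was among the smallest of their list. Jun.L, a subunit of the transcription factor AP-1, had 0.327, 0.340 and 0.316 aM in eggs, against 1.01, 1.38 and 1.11 aM in oocytes. Fos.L, its usual partner, had 0.947, 0.988 and 1.04 aM in eggs, against 2.00, 2.68 and 2.30 aM in oocytes. Ier2.L, an immediate-early nuclear protein, had 2.23, 2.27 and 2.37 aM in eggs, against 6.23, 6.39 and 5.85 aM in oocytes. Eggs and oocytes did not overlap for any of these. Jun.L, fos.L and ier2.L fell in all 3 fractions by edgeR's test, by 2.21, 2.17 and 1.18 on the log2 scale in the pellet, and the largest adjusted p among these 9 contrasts was 0.012, for fos.L in ER. That call of fos.L was lost without egg ER replicate 1 (adjusted p = 0.056), and its cytosol call in limma on aM values (-0.75, adjusted p = 0.11). The pellet value of fos.L was -1.43 without oocyte pellet replicate 2.

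The remaining rows of that group were jun.S, atf3.S and klf9.L. Jun.S had 0.154, 0.216 and 0.110 aM in eggs, against 0.386, 0.656 and 0.444 aM in oocytes, and fell in all 3 fractions by edgeR's test. Its cytosol call (adjusted p = 0.027) was lost without egg cytosol replicate 1 or 3 or oocyte cytosol replicate 1 or 2, with adjusted p of up to 0.119, and in limma on aM values (-0.75, adjusted p = 0.18). Its ER call (adjusted p = 0.020) was lost without egg ER replicate 3 or oocyte ER replicate 2, with adjusted p of up to 0.0954, and its pellet value without oocyte pellet replicate 2 was -1.60. Atf3.S, a stress-induced AP-1 relative, had 0.0243, 0.0212 and 0.0223 aM in eggs, against 0.0314, 0.176 and 0.0780 aM in oocytes. It fell in the pellet, by 2.90 on the log2 scale and by 1.76 without oocyte pellet replicate 2, with adjusted p of 7.30e-04 and 0.023 in edgeR's test. Klf9.L was the row that was higher, at 0.0575 ± 0.00342 aM in eggs and 0.0265 ± 0.00508 aM in oocytes (SD, n = 3). It rose in all 3 fractions by edgeR's test, but in ER it was at -0.21 under spike-in scaling and -0.07 in limma on aM values. The ER call (adjusted p = 0.047) was also lost without egg ER replicate 1 or 2 or oocyte ER replicate 2 or 3, with adjusted p of up to 0.172.

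The p53 and GADD45 list had 15 rows that rose and 14 that fell of 52 in egg cytosol, 6 and 10 in egg ER, and 17 and 17 in egg pellet. Over all transcripts 18.4% rose and 18.6% fell in cytosol, 12.4% and 16.1% in ER, and 22.3% and 21.4% in pellet. None of its 52 rows had a stage total at least 2-fold lower in eggs, which is near the 1.18% of all transcripts. At least 2-fold higher were 3 rows, both gadd45g rows and plk2.L, where 97.2% of all transcripts were within 2-fold. Plk2.L, a stress-induced kinase, was at 0.0301 ± 0.00623 aM in eggs and 0.0132 ± 0.00519 aM in oocytes (SD, n = 3). Chek1.S, the checkpoint kinase, was at 6.75 ± 0.366 aM in eggs and 4.36 ± 0.273 aM in oocytes. It rose in cytosol by 1.05 and in ER by 0.75 and fell in the pellet by 1.12 on the log2 scale. The adjusted p were 6.11e-11, 5.07e-08 and 3.70e-11 in edgeR's test. The ER rise is about as large as the spike-in shift of that contrast, -0.70. Rrm2b.S, the p53-inducible ribonucleotide reductase subunit, was at 33.0 ± 1.42 aM in eggs and 42.9 ± 1.26 aM in oocytes. It fell in the ER by 0.87 and rose in the pellet by 0.69 on the log2 scale, with adjusted p of 1.04e-08 and 7.98e-08.

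The thioredoxin, alpha-arrestin and antioxidant list had 21 rows that rose and 14 that fell of 69 in egg cytosol, 11 and 17 in egg ER, and 14 and 17 in egg pellet, against the same background of 18.4% and 18.6%, 12.4% and 16.1%, and 22.3% and 21.4%. Arrdc2.L was its row with a total at least 2-fold lower in eggs, while prdx1.L, prdx6.L and hmox1.S were at least 2-fold higher. Of all transcripts 1.18% were at least 2-fold lower, and 97.2% were within 2-fold. Hmox1.S, the inducible heme oxygenase, had 1.41, 0.689 and 0.527 aM in eggs, against 0.555, 0.174 and 0.293 aM in oocytes, so the stages overlapped. It rose in ER and pellet by 1.39 and 1.38 on the log2 scale, with adjusted p of 0.0046 and 1.71e-04 in edgeR's test, and the ER call was lost in limma on aM values (adjusted p = 0.087). Prdx2.L, an abundant peroxiredoxin, was at 27.0 ± 0.815 aM in eggs and 22.9 ± 1.26 aM in oocytes (SD, n = 3). It rose in cytosol by 0.83 and fell in ER by 0.62 and in pellet by 0.68, with adjusted p of 4.47e-11, 1.77e-08 and 1.21e-09. Ddit4.L, the stress-induced mTORC1 inhibitor REDD1, had 15.0, 15.7 and 16.4 aM in eggs, against 14.1, 12.3 and 12.7 aM in oocytes, without overlap. In the ER it rose by 0.70 on the log2 scale (adjusted p = 1.13e-07 in edgeR's test), which is as large as the spike-in shift of that contrast, and in cytosol and pellet its values were 0.06 and 0.01.

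The heat shock and unfolded protein response list had 11 rows that rose and 12 that fell of 59 in egg cytosol, 16 and 8 in egg ER, and 15 and 18 in egg pellet, where all transcripts had 18.4% and 18.6%, 12.4% and 16.1%, and 22.3% and 21.4%. Its median log2 ratio of stage totals was 0.15, near the 0.16 of all transcripts. Ppp1r15a.S, the stress-induced partner of protein phosphatase PP1 also named GADD34, was its row with a total at least 2-fold lower in eggs. It had 0.0672, 0.0622 and 0.0659 aM in eggs, against 0.0961, 0.442 and 0.190 aM in oocytes. Of all transcripts 1.18% were at least 2-fold lower, and 97.2% were within 2-fold. Ppp1r15a.S fell in the pellet by 2.79 on the log2 scale (adjusted p = 3.47e-04 in edgeR's test) and by 1.62 without oocyte pellet replicate 2, the library in which it was highest. The small heat shock protein row hspb8.S had a total more than 2-fold higher in eggs, 0.0125 ± 0.00402 aM in eggs and 0.00542 ± 0.00353 aM in oocytes (SD, n = 3), but the stages overlapped and no fraction passed the test. Eif2ak3.S, the ER stress sensor PERK, had totals of 3.72 to 3.99 aM in eggs and 6.46 to 6.56 aM in oocytes. It fell in cytosol by 2.25 and rose in pellet by 1.09, with adjusted p of 2.00e-16 and 1.19e-11.

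Scaled by the spike-ins, the splits of these 3 lists also moved. The p53 and GADD45 list had 6 rows higher and 0 lower in cytosol, 1 and 42 in ER, and 5 and 4 in pellet. The thioredoxin list had 13 higher and 2 lower in cytosol, 1 and 47 in ER, and 4 and 2 in pellet, and the heat shock list 2 and 3, 0 and 36, and 2 and 4. Over all transcripts 10.1% were then higher and 2.45% lower in cytosol, 0.790% and 61.3% in ER, and 5.46% and 4.74% in pellet. Without oocyte pellet replicate 2 the pellet counts were 17 higher and 16 lower for the p53 and GADD45 list, 12 and 15 for the thioredoxin list, and 13 and 17 for the heat shock list.

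**Figure D5:**
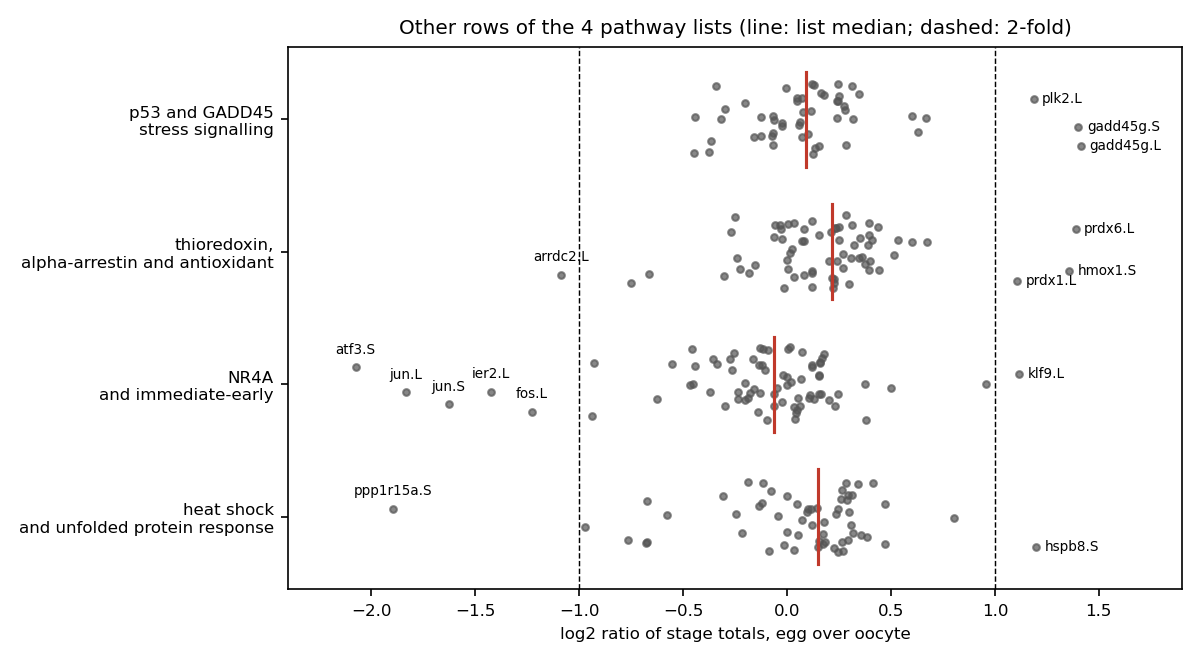
Log2 ratio of stage totals, egg over oocyte, for the other rows of the 4 lists, with a red line at each list median, dashed lines at 2-fold, and names on rows beyond 2-fold. The immediate-early list has a left tail with atf3.S, jun.L, jun.S, ier2.L and fos.L, and both gadd45g rows stand on the right of the p53 and GADD45 list.

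The transcripts whose levels ran most like the members were found by the Pearson correlation r of log2 CPM over the 18 libraries, which share stages and fractions, so r is a description. For gadd45a.S the nearest 5 were gadd45a.L at 0.991, efna1.S at 0.989, faim.S at 0.986, ier2.L at 0.985 and oraov1.S at 0.982. For txnip.L they were bhlhe40.L at 0.989, ier2.L at 0.982, gadd45a.S at 0.981, pcmtd2.S at 0.979 and LOC108707041 at 0.975. Gadd45a.S and ier2.L thus stood among the nearest 5 of txnip.L, although the total of gadd45a.S differed 8.66-fold between stages and that of txnip.L 3.09-fold. Nr4a1.L had other neighbours, among them mief2.L at 0.970, mcl1.S at 0.965, rchy1.L at 0.958 and LOC108711699 at 0.958. Its correlation was 0.923 with gadd45a.S, 0.904 with txnip.L and 0.816 with the row nr4a1.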

How the data were processed

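RNA of cytosol, ER and pellet was sequenced after ribosomal RNA depletion, in stranded libraries, per the labels. Per the submitters' processing notes, bcl2fastq 2.20 and kallisto 0.46.2 were used, and the authors deposited kallisto's estimated counts and TPM for each transcript. The authors converted TPM to aM by regression on 5 spike-in RNAs, per the labels. Percent values deposited by the authors split a transcript's aM sum over the fractions. The sources used here name neither genome build nor transcript set, and no coordinates or sequences are printed. Another 30 columns of the series tables (means, totals, ratios) were not used.

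Estimated counts were rounded, 1 unnamed transcript and the spike-ins were left out, filterByExpr by group kept 25938 transcripts, and edgeR 4.0.16 in R 4.3.3 (TMM, glmQLFit, glmQLFTest, 12 residual degrees of freedom) was fitted to all 18 libraries with group as the term. The fit was also run on simulated counts with changes between egg ER and egg cytosol only and no pairing of libraries. Its outcome is not reported here, and it does not cover the pellet or stage contrasts. Calls used a Benjamini-Hochberg adjusted p under 0.05 over all transcripts. With TMM a fold change is read against the typical transcript. Stage totals sum aM over 3 fractions per stage and replicate number. Alternatives were DESeq2 1.42.0, no low-count filter, spike-in scaling, limma 3.58.1 on log2(aM + 0.001), a replicate block, only the groups compared, homeologs summed and each library left out. Dropping oocyte pellet replicate 2 from the list counts was added after seeing the data.

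The genes, lists, tests and rule for named genes were chosen with earlier results of these data known. The rule takes every row of the 3 genes, their close family, the 2 list rows with the smallest adjusted p per direction and stage contrast whose mean log2 CPM reached 1, and the 5 nearest transcripts by correlation, of which 1 is not reported here; the rows named in the text are some of these, and those beyond 2-fold were added after their values were seen. Same-numbered libraries deviated together within a stage, with positive correlations of 0.09 to 0.22 in every pair of fractions. For oocyte ER and cytosol they were 0.11 to 0.22. The libraries behind the fraction contrasts were thus weakly paired. The main fit, with group as its term, did not use this pairing, and the replicate block did. Between stages the correlations were -0.046 to 0.037. Standard deviations and standard errors cover the spread between libraries only.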

Additional observations from a re-analysis of the deposited data

How the results depend on the processing

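No stage contrast of the 6 rows changed direction in any of 234 values from alternative fits, where the log2 fold change, egg over oocyte, ran between -4.93 and -0.29. These are refits of the same 18 libraries, for rows picked by their lower egg levels. The shared sign therefore describes the choice and supports nothing further. DESeq2 changed no call or direction of the 6 rows. Spike-in scaling shifts the typical transcript, so it moved egg over oocyte in cytosol and ER to -2.93 and -3.96 for gadd45a.S, -1.39 and -2.70 for txnip.L, and -0.88 and -1.96 for nr4a1.L. In limma on aM these were -2.86 and -4.09, -1.23 and -2.76, and -0.65 and -1.95. Spike-in scaling turned ER over cytosol in eggs to -1.61 (gadd45a.S), -1.58 (gadd45a.L), -1.88 (txnip.L), -1.67 (txnip.S), -1.37 (nr4a1.L) and -1.53 (nr4a1), and limma on aM to -1.69, -1.65, -1.93, -1.70, -1.42 and -1.60. In oocytes ER over cytosol became -0.59 (gadd45a.S), -0.40 (gadd45a.L), -0.57 (txnip.L), -0.37 (txnip.S) and -0.30 (nr4a1.L) with spike-ins, and -0.46, -0.27, -0.19 and -0.12 for gadd45a.S, gadd45a.L, txnip.S and nr4a1.L in limma. Pellet over cytosol in eggs became -0.80, -1.04, -1.11, -0.55, -1.80 and -0.95 in the same order of 6 rows with spike-ins, and -1.28, -1.59, -1.59, -1.02, -2.39 and -1.58 in limma. In oocytes it became -1.22, -0.67, -1.17, -1.13 and -0.90 for gadd45a.S, gadd45a.L, txnip.L, txnip.S and nr4a1.L with spike-ins, and -1.50, -0.91, -1.44, -1.40 and -1.16 in limma, where the stage change of that contrast for txnip.L turned to -0.15. With homeologs summed, egg over oocyte was -3.38, -3.50 and -3.04 for gadd45a and -1.43, -1.75 and -0.88 for txnip in cytosol, ER and pellet, the totals were -3.40 and -1.35, the pellet stage change of gadd45a was 0.34, and the sum of the nr4a1 rows was not called for ER over cytosol in eggs (0.40, adjusted p = 0.11), where nr4a1.L had been, nor for pellet over cytosol in eggs (0.39, adjusted p = 0.081), where nr4a1 had been, but was called for ER over cytosol in oocytes (0.50, adjusted p = 0.028). The sum of the txnip rows was called for ER over cytosol in oocytes (0.35), where txnip.S had been and txnip.L had not. Txnip.L was called there with no low-count filter (0.24), with only the groups compared (0.28) and with the replicate block (0.25). The block, which takes up the weak pairing of same-numbered libraries within a stage, changed no other call of the 6 rows. With only the groups compared nr4a1.L was called for pellet over cytosol in eggs (0.20). Leaving out single libraries gave ranges of 0.17 to 0.28 for gadd45a.S in oocyte ER over cytosol, 0.38 to 0.45 for nr4a1.L in egg ER over cytosol, -3.44 to -3.13 for gadd45a.S in egg over oocyte ER, -1.48 to -1.20 for txnip.L and -1.99 to -1.59 for nr4a1.L in egg over oocyte pellet, and the ER stage change crossed 0 for gadd45a.S (-0.26 to 0.052) and nr4a1 (-0.18 to 0.14). Beyond the scalings' own shifts, the cause of these changes was not tested. Depth limits gadd45a.L in eggs and nr4a1 most, with as few as 77 and 78.2 estimated counts.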
